A study of Mus musculus with 6 samples.

Results

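Levels of 10 genes of exosome formation and secretion were measured by RNA sequencing in Lewis lung carcinoma (LLC) cells that had grown in mice alone or together with bone marrow-derived mesenchymal stem cells (BMSCs). The genes were Cd63, Cd9 and Cd81, which encode tetraspanins of the vesicle membrane; Tsg101, Pdcd6ip and Vps4b of the ESCRT machinery; Sdcbp, which encodes syntenin; Smpd3, which encodes the neutral sphingomyelinase nSMase2; and Rab27a and Rab27b, which encode small GTPases. They were chosen by name for what their products do, and their rows were found by gene symbol, 10 of the 18182 genes in the files. The rule itself used no measured values, but the genes were chosen with earlier results of these data known.

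LLC is a mouse lung cancer line, here carrying red fluorescent protein (RFP). The cells were injected under the skin of wild type C57BL/6 mice either without other cells (LLC alone, 3 libraries) or mixed with BMSCs (LLC with BMSCs, 3 libraries), and once tumours had reached a set volume the RFP-positive cells were sorted from the primary site by flow cytometry. All 6 libraries therefore came from cells sorted out of a host by the label of a single line. Libraries of BMSCs or of unsorted tumour were not analysed here, and markers of other cell types are given below. The methods of the study name 6-week-old female mice for tumours of luciferase-labelled LLC and give no separate age for the mice of the RFP-labelled cells. The sources used here do not say whether each library was 1 tumour or a pool, so that p-values measure the spread between these libraries only.

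Exosomes are small vesicles that form when the membrane of a late endosome buds inward, and they are released when the resulting multivesicular body fuses with the plasma membrane. Budding can be driven by the ESCRT complexes, by syntenin acting with syndecans and the ESCRT partner ALIX, or by ceramide that a neutral sphingomyelinase makes from sphingomyelin. Rab27a and Rab27b bring multivesicular bodies to the plasma membrane, and tetraspanins such as CD63, CD9 and CD81 are abundant in the vesicle membrane and serve as its usual markers. The sequencing measured RNA of the cells, not vesicles.

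Each library held 33476347 to 46189113 estimated fragments on genes. The difference between the groups was broad. Of 13353 genes tested, 31.5% were called higher and 31.3% lower in LLC with BMSCs at an adjusted p under 0.05 (edgeR's quasi-likelihood test with Benjamini-Hochberg adjustment over all tested genes, used throughout). With a log2 fold change of at least 1 also required, the shares were 8.65% higher and 7.17% lower. Of the same genes, 70.6% had FPKM ranges (fragments scaled by gene length and library total) that did not overlap between the groups. Among carcinoma markers, Krt8 stood at 90.3 to 113 FPKM, whereas Krt18 was at most 0.69 FPKM and Krt7, Krt19, Epcam and Cdh1 were at or near 0 in all 6 libraries, so that the epithelial label rested on Krt8. Summed FPKM of 9 BMSC and fibroblast markers ranged from 47.7 to 57.9 in LLC alone and from 125 to 130 in LLC with BMSCs. Most of this sum was Col3a1 in both groups, at 41.18 mean FPKM in LLC alone and 100.03 in LLC with BMSCs. Dcn rose from 0.11 to 6.31 mean FPKM (log2 fold change 5.87). Log2 fold changes were 7.14 for Col1a1, at 0.013 mean FPKM in LLC alone, and 2.67 for Lum. Those of Col3a1, Col1a2, Pdgfra and Pdgfrb were 1.26, 1.54, 0.47 and 0.41, and all these genes were called higher. Thy1 and Cxcl12 were at 0 in LLC alone and at most 0.1 FPKM in LLC with BMSCs. Summed FPKM of the 7 neutrophil markers in the files ranged from 0.29 to 0.63 and from 42.8 to 51.7. In LLC with BMSCs most of this sum was S100a8 and S100a9, and Ngp was at 2.60 and Camp at 1.10 mean FPKM. Of the 7, Ly6g was at most 0.11 FPKM in any library and did not pass the filter, and the other 6 were called higher. The sum of 9 macrophage markers ranged from 8.01 to 9.83 and from 9.07 to 9.40, and its members moved both ways. Cd68 fell from 5.55 to 3.03 mean FPKM, whereas Lyz2 rose from 3.08 to 4.71, Csf1r from 0.11 to 0.53 and Mrc1 from 0.033 to 0.28, and Adgre1 was at 0 in LLC alone and at 0.42 to 0.56 in LLC with BMSCs. Sums of lymphocyte and endothelial markers stayed under 1 FPKM in every library. Within the lymphocyte list, however, Ptprc rose from 0.03 to 0.45 mean FPKM (adjusted p = 2.38e-05), whereas the others were at most 0.09 FPKM in any library. The sum of 7 platelet and mast cell markers ranged from 3.09 to 3.53 and from 5.44 to 5.81. The part of these markers in the results on the 10 genes was not tested. In bulk libraries such as these, a change in which cells were captured and a change in RNA per LLC cell cannot be told apart.

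All 10 genes passed the filter on low counts. In LLC with BMSCs, Cd9, Vps4b and Tsg101 were higher, Cd63, Sdcbp and Smpd3 were lower, and Cd81, Pdcd6ip, Rab27a and Rab27b were not called. The 6 of 10 called stood near the share among all tested genes, in both directions. FPKM ranges of the groups did not overlap for 7 of the 10, again close to the 70.6% of all genes. The median log2 fold change of the 10 genes was 0.13 beside 0.01 for all tested genes. A change past a log2 fold change of 1 was seen for Smpd3, which fell; no member rose as far.

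**Figure D1:**
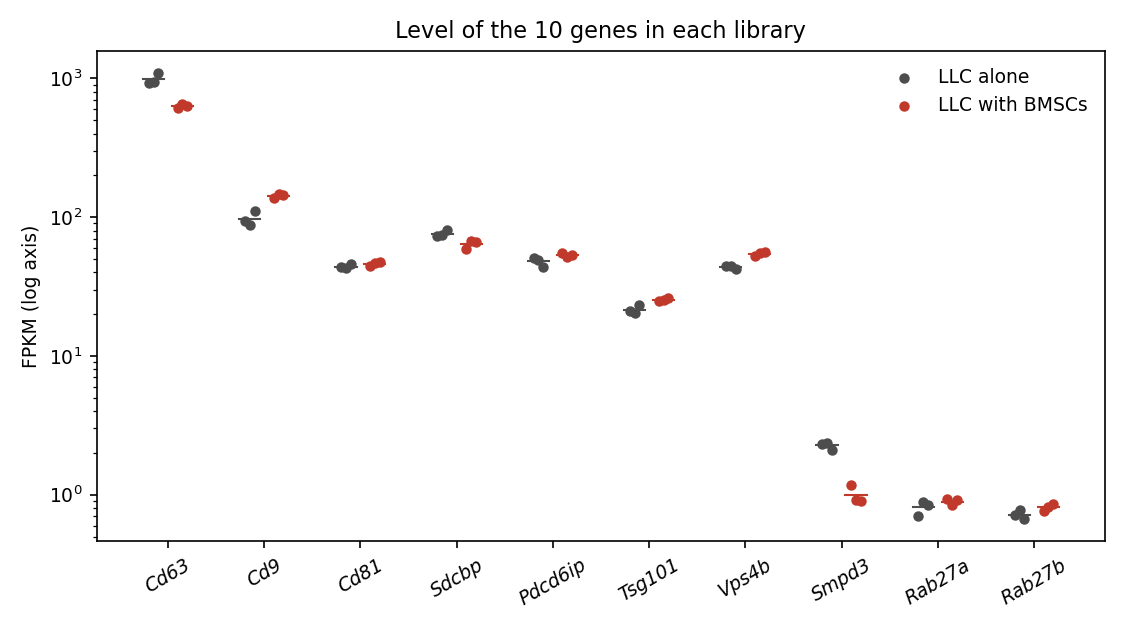
FPKM of each gene in each library on a log axis, with LLC alone in grey, LLC with BMSCs in red, a point per library and a line at the mean of 3. Cd63 lies above all other genes in both groups, Rab27a and Rab27b lie below 1 FPKM, and the groups separate for Cd63, Cd9, Sdcbp, Pdcd6ip, Tsg101, Vps4b and Smpd3.

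The tetraspanin windows around the annotated starts are shown because Cd63 and Cd9 moved in opposite directions while Cd81 was not called. They are from RefSeq on GRCm38.p6, hold 300 bases each from 250 before the start, and are written 5′ to 3′ on the strand of the gene. Capitals mark matches to the GC box GGGCGG or the hypoxia response core ACGTG. Cd9 lies at chr6:125494711-125495010 on the minus strand, Cd81 at chr7:143052500-143052799 on the plus strand and Cd63 at chr10:128909095-128909394 on the plus strand.
Cd9: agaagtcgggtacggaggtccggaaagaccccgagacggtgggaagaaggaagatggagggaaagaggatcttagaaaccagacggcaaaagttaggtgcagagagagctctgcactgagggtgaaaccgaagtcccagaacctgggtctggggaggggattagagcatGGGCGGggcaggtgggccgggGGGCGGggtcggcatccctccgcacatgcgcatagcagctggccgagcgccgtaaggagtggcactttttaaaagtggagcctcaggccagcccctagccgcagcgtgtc
Cd81: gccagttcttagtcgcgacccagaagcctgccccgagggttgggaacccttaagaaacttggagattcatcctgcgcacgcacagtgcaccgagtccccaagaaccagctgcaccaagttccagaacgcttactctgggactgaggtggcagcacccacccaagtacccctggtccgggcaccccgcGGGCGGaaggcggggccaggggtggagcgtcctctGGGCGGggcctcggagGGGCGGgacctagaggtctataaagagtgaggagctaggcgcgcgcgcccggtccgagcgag
Cd63: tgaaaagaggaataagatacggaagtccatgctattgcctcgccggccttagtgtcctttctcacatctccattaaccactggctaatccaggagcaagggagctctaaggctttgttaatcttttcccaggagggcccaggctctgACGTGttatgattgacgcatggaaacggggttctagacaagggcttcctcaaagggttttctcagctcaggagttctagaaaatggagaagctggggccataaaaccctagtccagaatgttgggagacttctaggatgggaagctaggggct

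The start used for the Cd9 window lies 31 bases from the GENCODE start of its transcript NM_007657. For Cd63 it lies 354 bases before the GENCODE start of NM_007653, so that the window shown ends before that start. NM_007653 carried 99.5% of Cd63 FPKM in LLC alone. The GENCODE starts of NM_001042580 and NM_001282966 lie 525 bases before the start used, also outside the window. In that annotation the Cd63 window holds no start of a listed transcript, whereas the Cd9 and Cd81 windows do. Cd81 held 3 GC boxes and Cd9 held 2, whereas Cd63 held none, and 35.7% of all 32851 windows held at least 1. Their GC content was 65.7% for Cd81, 61.3% for Cd9 and 49.3% for Cd63 beside a median of 52.7%, with 23, 18 and 6 CpG dinucleotides beside a median of 7.

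Smpd3, Sdcbp and Rab27b had no window in the set searched, from which a chromosome had been left out for the members. Windows were examined for 7 of the 10 genes, Rab27a with 2. In these 8 windows the STAT core TTCNNNGAA and the interferon response core, GAAA followed after 2 bases by GAAA, had no match on either strand, whereas 8.30% and 3.44% of all windows held them. The E-box CACGTG was found in the Pdcd6ip window and in the second Rab27a window (7.15% of all windows), whose start lies 19291 bases or more from the GENCODE starts of the Rab27a transcripts in the files. ACGTG, which lies within CACGTG, was found in the windows of Cd63, Tsg101 and Pdcd6ip and in the second Rab27a window (19.6% of all windows). The motifs were chosen after the values were seen, and a match is a description of letters only.

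Among the tetraspanins, Cd63 was by far the most abundant of the 10 genes and fell. Cd63, a tetraspanin of late endosomes and lysosomes, was at 920.60, 948.27 and 1091.24 FPKM in LLC alone and at 606.81, 655.28 and 634.31 FPKM in LLC with BMSCs. All 3 libraries with BMSCs lay below all 3 without. Its log2 fold change was −0.66 ± 0.08 (SE, 3 libraries per group), with a 95% interval of −0.85 to −0.48 and an adjusted p of 0.000223. By FPKM it ranked between 87 and 92 among all genes in LLC alone and between 114 and 119 in LLC with BMSCs. The fall lay in NM_007653, which made up 99.5% and 99.8% of the gene's FPKM in the respective groups. The minor transcript NM_001042580 was at 4.04 ± 1.05 and 1.17 ± 0.43 FPKM (SD, n = 3).

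Cd9, a tetraspanin of the cell surface, was at 93.80, 87.25 and 110.10 FPKM in LLC alone and at 137.71, 147.20 and 143.42 FPKM in LLC with BMSCs. The groups did not overlap, and LLC alone replicate 3 was the highest of its group for Cd9 as it was for Cd63. Cd9 rose by a log2 fold change of 0.53 ± 0.09 (SE), with an interval of 0.32 to 0.75 and an adjusted p of 0.00144. It is annotated with a single transcript in the files. Neutrophil and stromal marker sums also rose in LLC with BMSCs, as given above, and their part in the rise of Cd9 was not tested.

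Cd81, a broadly expressed tetraspanin of the plasma membrane, was at 43.43, 42.88 and 45.85 FPKM in LLC alone and at 44.55, 46.81 and 47.51 FPKM in LLC with BMSCs. The ranges overlapped. Its log2 fold change was 0.05, with an interval of −0.09 to 0.19 and an adjusted p of 0.484. With a trend over transcript length removed from the libraries, Cd81 was called higher, by a log2 fold change of 0.14 (adjusted p = 0.0165).

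The intervals of the log2 fold changes of Cd63, Cd81 and Cd9 did not overlap each other, so that the balance of these vesicle marker transcripts differed between the groups. Cd63 FPKM was 10.2 ± 0.58 times that of Cd9 in LLC alone (SD, n = 3) and 4.43 ± 0.02 times in LLC with BMSCs. The lowest ratio in LLC alone was 9.81 and the highest in LLC with BMSCs was 4.45. Of the summed FPKM of the 3 tetraspanins, Cd63 made up 87.5% ± 0.45 and 77.0% ± 0.16, Cd9 8.60% ± 0.44 and 17.4% ± 0.06, and Cd81 3.92% ± 0.22 and 5.64% ± 0.12 (SD, n = 3). The sum itself was 1128 ± 104 FPKM without BMSCs and 821 ± 30.3 FPKM with them (SD, n = 3). For each ratio the exact permutation test over 3 against 3 libraries cannot go below a two-sided p of 0.1.

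**Figure D2:**
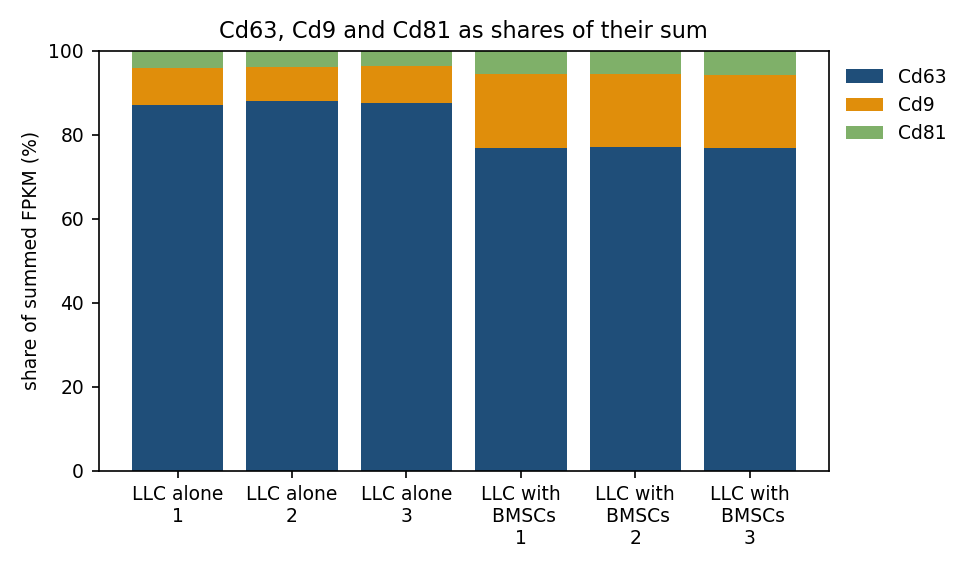
Share of Cd63, Cd9 and Cd81 in their summed FPKM, in percent, with a stacked bar for each of the 6 libraries. Cd63 takes 87.0% to 87.9% of each LLC alone library and 76.9% to 77.2% of each library with BMSCs, and Cd9 takes 8.09% to 8.87% and 17.3% to 17.5%.

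The ESCRT genes differed little in size. Tsg101 encodes the ESCRT-I subunit that recognises ubiquitinated cargo. Its FPKM was 21.05, 20.25 and 23.33 in LLC alone and 24.98, 25.24 and 26.03 in LLC with BMSCs. The groups did not overlap, and the gap between them was narrower than the range within LLC alone. Tsg101 rose by a log2 fold change of 0.22 ± 0.07 (SE, adjusted p = 0.0251). The call was lost without LLC alone replicate 1 (adjusted p = 0.0819) or 2 (0.0882), and without LLC with BMSCs replicate 1 (0.0550), 2 (0.0630) or 3 (0.0843), with the log2 fold change between 0.17 and 0.23 in these 5 fits.

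Vps4b encodes an ATPase that takes ESCRT-III filaments apart at the end of budding. It was at 44.14, 44.36 and 42.43 FPKM in LLC alone and at 52.44, 55.45 and 55.88 FPKM in LLC with BMSCs. The groups were well apart, the lowest library with BMSCs lying above the highest without by more than the range of either. Vps4b rose by a log2 fold change of 0.30 ± 0.05 (SE, interval 0.18 to 0.43, adjusted p = 0.00186). With the 2 closest libraries of each group summed, the adjusted p was 0.0521. The ratio of Vps4b to Tsg101 FPKM was 2.04 ± 0.19 and 2.15 ± 0.05 (SD, n = 3), with overlapping ranges.

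Pdcd6ip encodes ALIX, which links syntenin and ESCRT-I to ESCRT-III. It was at 51.05, 49.37 and 43.85 FPKM in LLC alone and at 55.03, 51.67 and 53.18 FPKM in LLC with BMSCs. The groups did not overlap, with the lowest library with BMSCs next to LLC alone replicate 1. The log2 fold change was 0.13 with an interval of −0.04 to 0.29 and an adjusted p of 0.147. Its direction turned with the length trend removed, to −0.14 (adjusted p = 0.0136), and at 5962 bases Pdcd6ip is among the longest of the 10 genes. The transcript NM_011052 carried 91.6% and 93.0% of the FPKM in the respective groups, and NM_001164678 was at 3.41 ± 0.61 and 3.15 ± 0.34 FPKM (SD, n = 3).

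Sdcbp, the gene of the adaptor syntenin that joins syndecans to ALIX, fell. It was at 73.46, 73.83 and 80.21 FPKM in LLC alone and at 59.35, 67.56 and 66.16 FPKM in LLC with BMSCs. LLC with BMSCs replicate 1 was the lowest, and the groups did not overlap. The log2 fold change was −0.26 ± 0.07 (SE, interval −0.42 to −0.09, adjusted p = 0.0136). With close libraries of a group summed the call was lost (adjusted p = 0.0654). The 2 main transcripts kept nearly the same shares. NM_001098227 went from 58.4 ± 3.1 to 49.8 ± 3.9 FPKM and made up 77.0% and 77.5% of the gene, and NM_016807 went from 16.2 ± 1.2 to 13.8 ± 1.2 FPKM (SD, n = 3). An assembled transcript of the authors' pipeline was at 1.22 ± 0.23 and 0.71 ± 0.20 FPKM.

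Transcripts of the partners ALIX and syntenin differed in proportion between the groups. Pdcd6ip over Sdcbp FPKM was 0.637 ± 0.079 in LLC alone and 0.832 ± 0.085 in LLC with BMSCs (SD, n = 3). The ranges were 0.547 to 0.695 and 0.765 to 0.927 and did not overlap, and the lowest was that of LLC alone replicate 3. With the length trend removed both genes were lower, with log2 fold changes of −0.14 and −0.31, so that they lay closer together. Sdcbp shares 78 exonic bases with Nsmaf on the opposite strand in GENCODE M21, and the sources used here do not state whether counting used the strand.

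Smpd3 had the largest change of the 10 genes. Its product makes ceramide at membranes and is the enzyme of the ESCRT-independent route of budding. Smpd3 was at 2.33, 2.36 and 2.11 FPKM in LLC alone and at 1.18, 0.92 and 0.90 FPKM in LLC with BMSCs. Every library with BMSCs lay well below every library without, and replicate 1 was the highest of those with BMSCs. These levels rested on 402 to 546 estimated fragments per library in LLC alone and 201 to 268 in LLC with BMSCs. The log2 fold change was −1.19 ± 0.12 (SE, interval −1.48 to −0.91, adjusted p = 0.000105). On the scale of log2(FPKM + 1) it was −0.71, a scale that shrinks changes of low genes. Smpd3 shares 247 exonic bases with Prmt7 on the opposite strand, out of a length of 5148 bases. Cd9 likewise shares 218 of its 1306 bases with Gm26728 and Cd81 shares 104 with R74862, both on the opposite strand, and Rab27a shares 149 with the pseudogene Gm27186 on the same strand, none of which is listed in the files.

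The tested genes whose centred log2(FPKM + 1) values lay closest to those of Smpd3 over the 6 libraries were Mras, Eps8l2, Tgfb1i1, Sh3bp2 and Slc7a5, at Euclidean distances of 0.087 to 0.110. Their fall in LLC with BMSCs was fixed by this choice and is a description. Mras, a RAS-like GTPase gene, went from 12.3 to 6.80 mean FPKM, and Slc7a5, the gene of an amino acid transporter, from 201 to 118 mean FPKM.

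Rab27a and Rab27b, the GTPase genes of the secretion step, were the lowest of the 10 and were not called. Rab27a was at 0.70, 0.88 and 0.85 FPKM in LLC alone and at 0.93, 0.84 and 0.91 FPKM in LLC with BMSCs. Rab27b was at 0.72, 0.77 and 0.67 FPKM in LLC alone and at 0.76, 0.81 and 0.86 FPKM in LLC with BMSCs. For both genes the ranges overlapped. Rab27a rested on 88 to 125 estimated fragments per library and Rab27b on 185 to 271.

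The log2 fold change of Rab27a was 0.13 with an interval of −0.17 to 0.43 (adjusted p = 0.419), and that of Rab27b was 0.14 with an interval of −0.08 to 0.37 (adjusted p = 0.217). A change of either gene within these intervals could not be told from none. For Rab27b the direction turned with the length trend removed, to −0.17 (adjusted p = 0.173), and at 7211 bases it is the longest of the 10. Their ratio was 1.13 ± 0.15 in LLC alone and 1.11 ± 0.10 in LLC with BMSCs (SD, n = 3). Rab27a was above Rab27b in each library with BMSCs, by 1.04 to 1.22 times, whereas the ratio lay on both sides of 1 in LLC alone (0.972 to 1.27).

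**Figure D3:**
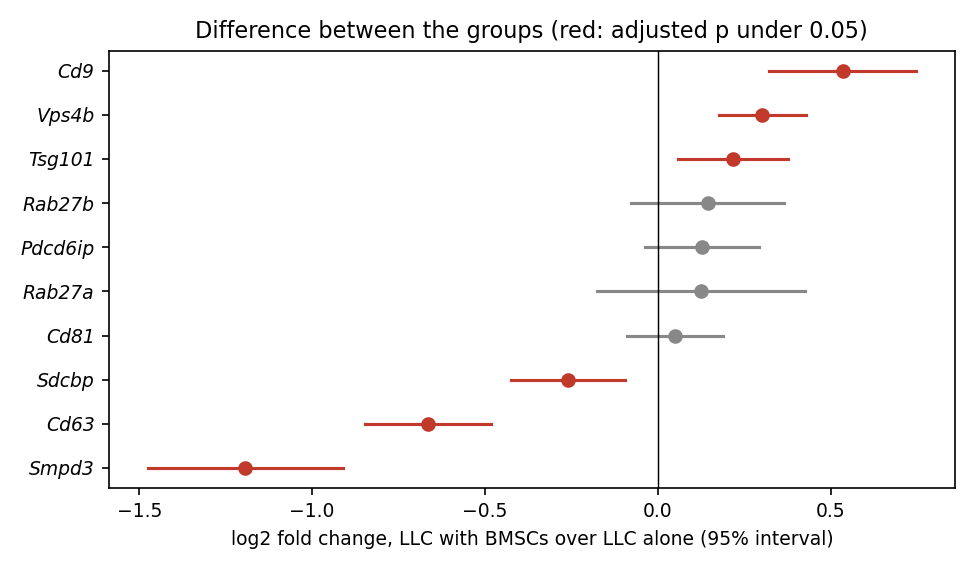
Log2 fold change of each gene, LLC with BMSCs over LLC alone, with its 95% interval from edgeR and 3 libraries per group; red marks an adjusted p under 0.05. Intervals of Cd9, Vps4b and Tsg101 lie above 0, those of Sdcbp, Cd63 and Smpd3 below it, and those of Rab27b, Pdcd6ip, Rab27a and Cd81 include it.

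By FPKM the order in LLC alone was Cd63, Cd9, Sdcbp, Pdcd6ip, Cd81, Vps4b, Tsg101, Smpd3, Rab27a and Rab27b. The ranges of Pdcd6ip, Cd81 and Vps4b overlapped from neighbour to neighbour, as did those of Rab27a and Rab27b, and all other neighbours were apart. In LLC with BMSCs, Vps4b stood next to Pdcd6ip with overlapping ranges and Cd81 below both. Smpd3, at 1.0 ± 0.16 FPKM (SD, n = 3), then overlapped Rab27a but still lay above Rab27b, whereas in LLC alone it was at 2.27 ± 0.14 FPKM and above both GTPase genes.

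The terms that the authors' tables attach to genes group the members in another way. Extracellular exosome is attached to Pdcd6ip and Sdcbp, as is positive regulation of exosomal secretion. Multivesicular body is attached to Rab27a and Rab27b, and late endosome to Cd63, Tsg101 and Vps4b. Of 441 tested genes with the term extracellular exosome, 147 were higher and 142 lower, with a median log2 fold change of 0.06, beside 31.5% higher and 31.3% lower among all tested genes. Of 72 tested genes with late endosome, 29 were higher and 24 lower, with a median of 0.08. None was called higher and 2 lower of 7 tested with multivesicular body, and 0 higher and 1 lower of 3 with positive regulation of exosomal secretion.

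Other genes of the pathway were taken from 8 lists of 118 genes without the 10 members, of which 108 were tested. In LLC with BMSCs, 29 were higher, 37 lower and 42 not called, so that 61.1% were called, beside the 31.5% higher and 31.3% lower of all tested genes. Their median log2 fold change was −0.02. Of the 108, 2 rose and 5 fell by a log2 fold change of at least 1, beside 8.65% and 7.17% of all tested genes.

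Of 14 other genes of ESCRT-0, -I and -II, 3 were higher and 6 lower (median log2 fold change −0.19). Vps37b, which encodes an ESCRT-I partner of TSG101, fell from 39.4 to 19.9 mean FPKM (log2 fold change −1.01, adjusted p = 2.86e-05), whereas its paralogue Vps37a rose from 6.67 to 9.01. Stam, the gene of an ESCRT-0 subunit, fell from 30.1 to 16.01 mean FPKM. Of 13 genes of ESCRT-III and the VPS4 complex, 2 were higher and 6 lower (median −0.02). Vps4a, the paralogue of Vps4b, rose from 11.5 to 13.5 mean FPKM, and Chmp4b and Chmp2b, which encode filament subunits, fell by log2 fold changes of 0.53 and 0.51.

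In the syndecan, syntenin and ALIX route, 4 of 10 genes were higher and 3 lower (median 0.14). Of the syndecans, the membrane proteoglycans that syntenin binds, Sdc4 rose from 64.3 to 122 mean FPKM and Sdc2 fell from 46.6 to 25.9. Pld2 and Arf6, which encode a phospholipase and the GTPase that acts on it, moved apart, with log2 fold changes of 0.72 and −0.48. Of 12 other ceramide and sphingomyelin genes, 3 were higher and 3 lower (median 0.03). The acid sphingomyelinase gene Smpd1 fell from 4.82 to 3.24 mean FPKM, and Smpd4, another neutral sphingomyelinase gene, rose from 15.7 to 21.0.

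Of 17 tested Rab and RAB27 effector genes, 2 were higher and 8 lower (median −0.12). Sytl2, which encodes an effector that binds RAB27 proteins, was at 2.83, 2.70 and 2.35 FPKM in LLC alone and at 0.43, 0.39 and 0.50 FPKM in LLC with BMSCs. The groups were far apart, with a log2 fold change of −2.56 ± 0.13 (SE, adjusted p = 3e-06). Rab7, the gene of the late endosomal GTPase, fell from 128 to 83.6 mean FPKM, and the effector gene Mlph rose from 1.31 to 1.64. Of 11 docking and fusion genes, 5 were higher and 3 lower (median 0.04). Vamp8, which encodes a SNARE of late endosomes, fell from 107 to 54.0 mean FPKM, and Ralb, a GTPase gene, rose from 25.4 to 33.3.

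Of 14 tested other tetraspanins, 4 were higher and 3 lower (median 0.12). Tspan9 rose from 8.33 to 15.03 mean FPKM and Cd82 from 5.86 to 8.72, whereas Tspan4 fell from 79.2 to 52.8 and Tspan31 from 89.0 to 66.9. Of 17 vesicle cargo genes, 6 were higher and 5 lower (median 0.14). Lamp1 and Lamp2, which encode membrane proteins of the lysosome, fell by log2 fold changes of 0.71 and 0.55, and the chaperone gene Hsp90ab1 rose from 1440 to 2251 mean FPKM. Of the 7 genes past a log2 fold change of 1, Vps37b, Vamp8 and Sytl2 are given above, and the other 4 had means under 1 FPKM in both groups and are named because the count is small. Exph5 was at 0.19 and 0.013 mean FPKM, Tspan2 at 0.34 and 0.12, Anxa6 at 0.20 and 0.58, and Cd53, a tetraspanin gene of leukocytes, at 0.01 and 0.95.

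**Figure D4:**
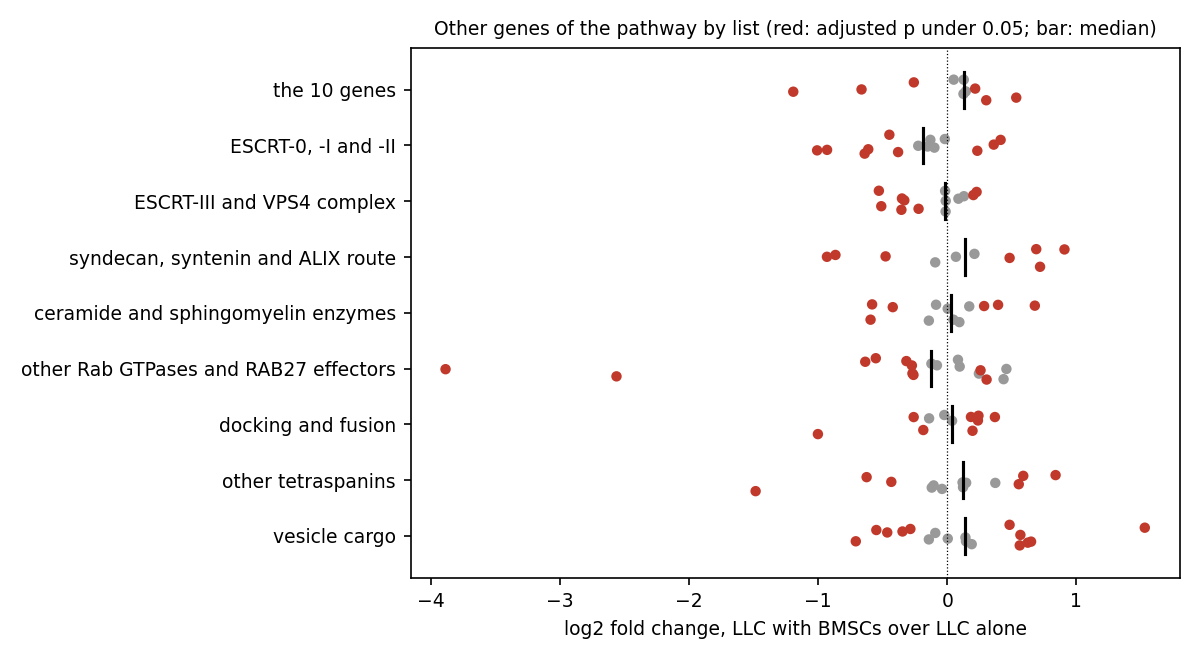
Log2 fold change, LLC with BMSCs over LLC alone, of the 10 genes and of the other tested genes in each of 8 lists, with a point per gene, a bar at the median and red for an adjusted p under 0.05. Each row holds points on both sides of 0 and the medians lie between −0.19 and 0.14; Cd53, with fewer than 3 normalised counts in LLC alone, is not drawn.

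**Figure D5:**
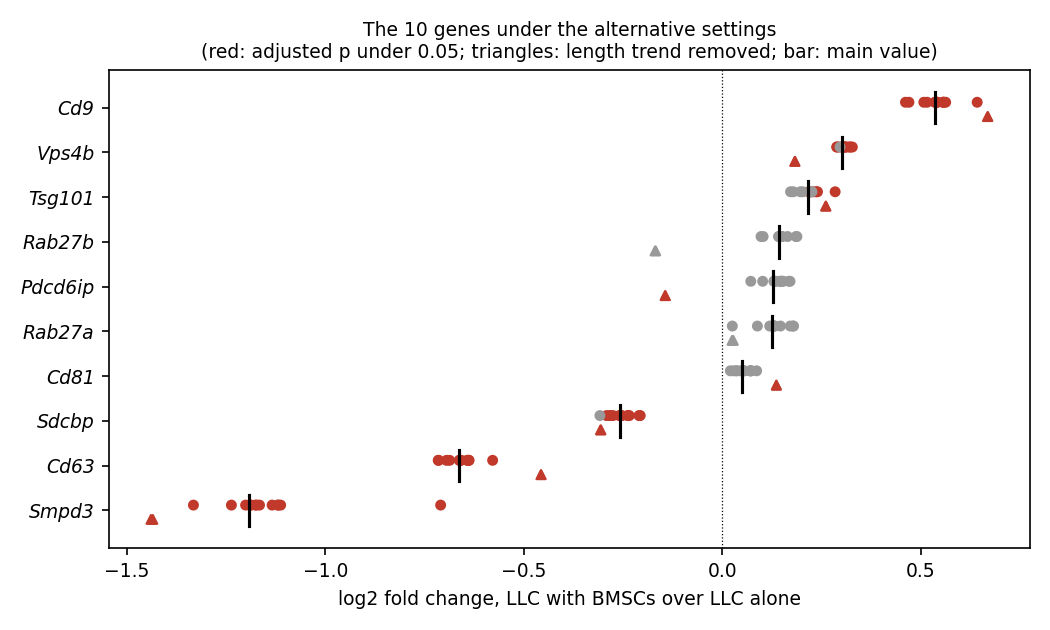
Log2 fold change of each gene under the alternative settings, with a bar at the value reported here, triangles for fits with the length trend removed and red for an adjusted p under 0.05. Smpd3 stays between −1.44 and −0.71, Cd63 between −0.72 and −0.46 and Cd9 between 0.46 and 0.67, all red, whereas Pdcd6ip and Rab27b cross 0.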

How the data were processed

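RNA sequencing data of RFP-positive LLC cells sorted from tumours were used, 3 libraries per group, grouped by the sample labels. According to the methods of the study, RNA was extracted with TRIzol, selected with oligo-dT and sequenced as paired-end reads of 100 bp on a BGISEQ-500, whereas the labels name Illumina protocols. The submitters' processing notes name HISAT, StringTie, Cufflinks, GATK and the build mm8 with no role, and the program that counted is not given in the sources used here. Estimated counts for genes and transcripts were deposited without normalization (21.9% to 23.2% of genes per library had a count that was not whole), and FPKM values, scaled by length and library total. Estimated counts split reads shared by similar sequences, and a shift in abundant genes moves FPKM of all others.

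The genes, lists and tests were chosen with earlier results of these data known. Estimated counts were rounded and tested over all genes with edgeR 4.0.16 (R 4.3.3; TMM, default filter on low counts, quasi-likelihood test, Benjamini-Hochberg adjustment, threshold 0.05). FPKM of single genes was compared with an exact two-sided permutation test, which with 3 against 3 gives no p below 0.1. Of the pathway lists, the 2 largest rises and 2 largest falls per list among called genes with a mean of at least 1 FPKM were eligible to be named, and for Smpd3 the 5 nearest genes. Transcripts at 1 FPKM or more in a group mean were named. Alternatives were DESeq2 1.42.0, limma 3.58.1 on log2(FPKM + 1) and log2(FPKM + 0.1), no TMM, no filter, at least 10 counts in every library, a replicate block, removal of each library's trend over transcript length, summing of close libraries and leaving out each library. Depth of 33476347 to 46189113 fragments per library places 3 counts at 0.065 to 0.0896 CPM, which covers counting error only.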

Additional observations from a re-analysis of the deposited data

How the results depend on the processing

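Smpd3, Cd9 and Cd63 kept their direction and their call in 16 of 16 alternatives. Their log2 fold changes ranged from −1.44 to −0.71, from 0.46 to 0.67 and from −0.72 to −0.46. Within groups, the counts of LLC alone replicates 1 and 2 and of LLC with BMSCs replicates 2 and 3 lay closer (chi-square of 4.80 and 3.03 per gene) than those of the other pairs (19.3 to 61.0). With these close libraries summed, leaving 2 against 2, 1 of the 10 genes was called higher and 2 lower. Vps4b (adjusted p = 0.0521), Sdcbp (0.0654) and Tsg101 (0.201) were no longer called. Of the pathway genes, 16 were higher in place of 29 and 28 lower in place of 37. Over all 13820 genes tested in that fit, 3364 were higher and 3301 lower, beside 4210 and 4183 of 13353 in the main fit. With a log2 fold change of at least 1 required, 0 members were higher and 1 lower, and 2 pathway genes were higher and 5 lower. The shares of all tested genes were then 8.65% higher and 7.17% lower. Leaving out 1 library gave 2 or 3 members higher and 3 lower, and 22 to 34 pathway genes higher and 33 to 40 lower. Of the 13508 to 13547 genes tested in these fits, 3617 to 4736 were higher and 3581 to 4539 lower.

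Short transcripts were relatively high and long ones low in LLC alone replicate 3 (median log2 deviations of 0.313 and −0.365 in the shortest and longest of 5 equal classes of genes). The other LLC alone libraries leaned the same way by less (0.0622 and 0.0371, and −0.0224 and −0.00325). All libraries with BMSCs went the other way (−0.189, −0.091 and −0.112, and 0.18, 0.104 and 0.131). The trend thus ran with the groups. Removing it took Cd63, at 918 bases, from −0.66 to −0.46 and Vps4b from 0.30 to 0.18. The changes of Cd9, Tsg101, Sdcbp and Smpd3 grew, and these genes all kept their calls. With the trend removed, Pdcd6ip turned to −0.14 (adjusted p = 0.0136), Rab27b to −0.17 (0.173) and Cd81 rose by 0.14 (0.0165). With the replicate block and the trend removed together, the values were −0.14 (0.0180), −0.17 (0.135) and 0.14 (0.0326). Same-numbered libraries correlated at 0.076, −0.106 and 0.057 after group means were removed, so that the numbers were not taken as pairs. The replicate block alone gave 3 members higher and 3 lower and changed no call among them. In that fit 4161 of all 13353 tested genes were higher and 4058 lower. Rab27a and Rab27b were below the FPKM filter of the limma fits. Rab27a rested on the fewest fragments of the 10 genes, 88 to 125 per library, and had the widest interval, whereas Rab27b and Cd9 had standard errors of 0.095 and 0.092 at very different depth.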
